A study of Rattus norvegicus with 6 samples.

Results

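Genes that tell atrial from ventricular muscle were followed in transplanted rat hearts, to judge per heart which tissue had been sampled. They were chosen by symbol from the deposited gene table and make up 10 of its 22250 genes. Of these, 6 are known as atrial (Myl4, Myl7, Sln, Mybphl, Nr2f1 and Nr2f2) and 4 as ventricular (Myl2, Myl3, Irx4 and Hey2). The hearts were wild-type Sprague-Dawley grafts, taken on day 1 after heterotopic transplantation, in which the donor heart is added beside the recipient's own heart. Donors were young (10 weeks, animals 3, 13 and 15) or aged (1 year, animals 3, 4 and 7), so that donor age was the only labelled difference between the groups of 3 hearts. All 6 hearts had been kept in cold preservation solution and were placed in young recipients, and every library was labelled as left ventricular myocardium. The counts hold donor and recipient RNA together. Whether any library held atrial tissue beside ventricle is not given by the labels and was not tested. Nothing beyond the titles tells the animals apart, so p-values measure the spread between these libraries.

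In the working heart, each chamber uses its own set of contractile proteins. Atrial muscle uses the essential light chain Myl4 and the regulatory light chain Myl7 on its myosin, where ventricular muscle uses Myl3 and Myl2. Sarcolipin (Sln) restrains the calcium pump of the sarcoplasmic reticulum in atria, as phospholamban (Pln) does mainly in ventricles, and Mybphl is a myosin-binding protein of the atria. The transcription factors Nr2f1 and Nr2f2 set atrial identity in the embryo, while Irx4 and Hey2 hold down atrial genes in the ventricle. Nr2f2 is also made in venous and lymphatic endothelium, and Hey2 in arterial endothelium.

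Reads counted on genes ranged from 21457509 to 24560869 per heart, so that 3 reads, taken here as the smallest signal, were 0.122 to 0.14 CPM (counts scaled to library size). Levels are given as FPKM, which divides the reads by gene length as well and so can be compared between genes. Hearts stood apart in their muscle content before any chamber gene was considered. The geometric mean of 10 genes shared by all heart muscle cells, troponins and alpha-actinin among them, was 1217, 1244 and 403.9 FPKM in young animals 3, 13 and 15. It was 5.33, 257.8 and 175.8 FPKM in aged animals 3, 4 and 7. Aged animal 3 therefore had little cardiomyocyte RNA to type, and group differences are also given without it. Young animal 15 stood apart from the other young hearts as well, with a chi-square per degree of freedom over genes of 471.1 and 503.0 against young animals 3 and 13, which differed from each other by 9.81. In bulk tissue, fewer cells of a type and less RNA per cell cannot be told apart.

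Ventricular Myl3 was the highest of the 10 genes by FPKM in all 6 hearts, and Myl2 came next in 4 of them. In aged animal 4, Sln and Myl4 ranked above Myl2, and Hey2 and Irx4 came last. In aged animal 3, Nr2f2 and Nr2f1 ranked above Myl2. Myl3 (ENSRNOG00000020955, Rnor_6.0 chromosome 8, 119030875 to 119036996) measured 5340, 5505 and 1654 FPKM in young animals 3, 13 and 15. It measured 24.7, 1046 and 1344 FPKM in aged animals 3, 4 and 7. The groups did not overlap, with means of 4166 ± 2177 and 805.0 ± 692.0 FPKM (SD, n = 3 each), and aged animal 3 lay far under the rest. Myl2 (ENSRNOG00000030848, chromosome 12, 39951987 to 39958239) measured 544.7, 592.0 and 107.4 FPKM in the young hearts. It measured 2.29, 64.4 and 97.7 FPKM in the aged hearts. Here too the groups did not overlap, but young animal 15 lay close to aged animal 7.

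The ventricular transcription factors were also higher in most young hearts. Irx4 (ENSRNOG00000012720, chromosome 1, 32634796 to 32643771) measured 20.6, 16.6 and 6.24 FPKM in the young hearts. In the aged hearts it measured 0.0317, 1.80 and 2.39 FPKM, the first of these resting on 2 reads. All young hearts were above all aged hearts. Hey2 (ENSRNOG00000013364, chromosome 1, 29191192 to 29201531) measured 8.58, 7.41 and 3.81 FPKM in the young hearts. It measured 0.960, 2.73 and 4.25 FPKM in the aged hearts, so that aged animal 7 overlapped young animal 15. For Irx4, young animal 15 had 357 reads against 1134 and 917 in the other young hearts.

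**Figure D1:**
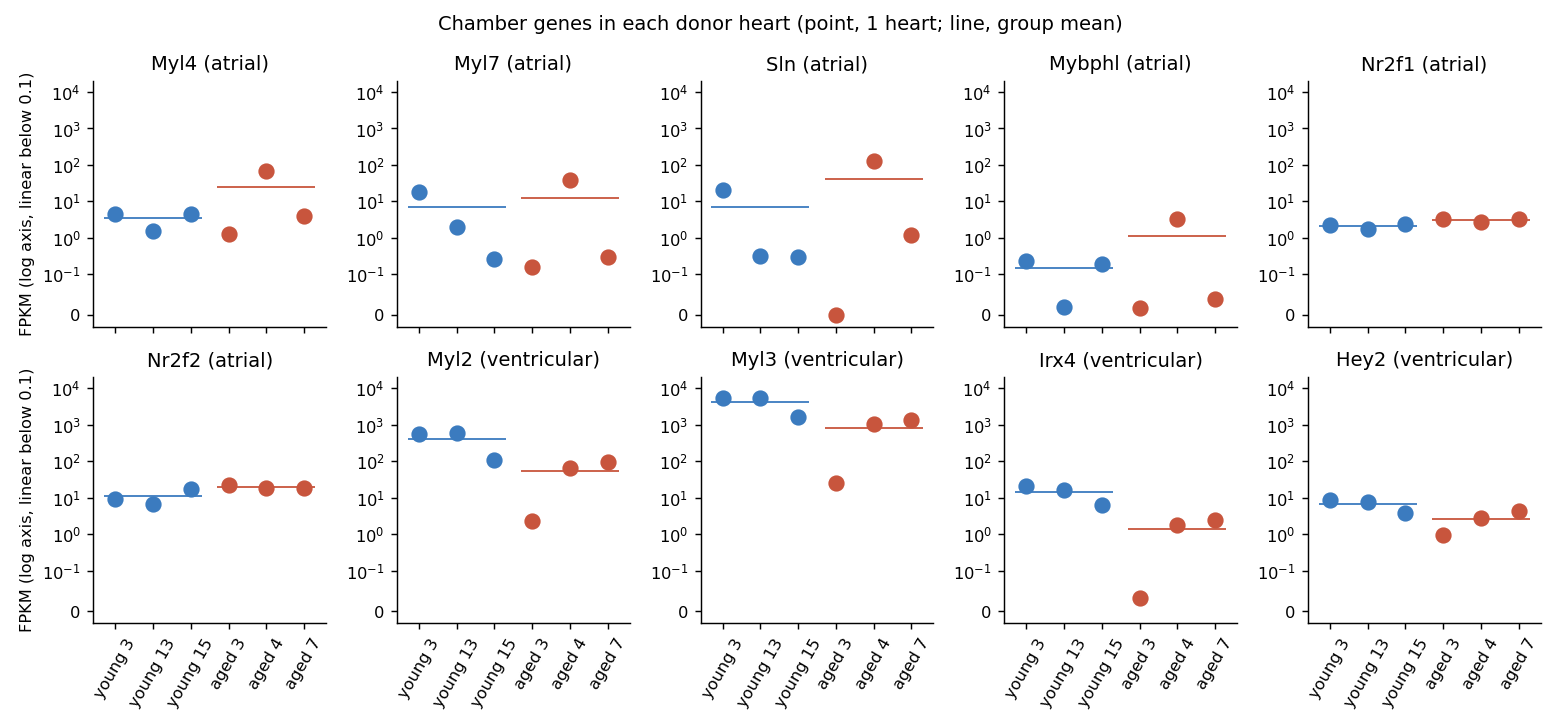
Level of each of the 10 chamber genes in each heart, as FPKM on a logarithmic axis that is linear below 0.1, with 1 point per heart (young blue, aged red) and a line at each group mean. Aged animal 4 stands above all other hearts for Myl4, Myl7, Sln and Mybphl, and aged animal 3 is lowest for all 4 ventricular genes.

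The atrial muscle genes were low in most hearts and high in a single one, aged animal 4. Myl4 (ENSRNOG00000050675, chromosome 10, 92628356 to 92638100) measured 4.51, 1.58 and 4.46 FPKM in the young hearts. It measured 1.28, 67.8 and 3.86 FPKM in the aged hearts. Aged animal 4, with 1257 reads, was 15.0 times the next highest heart, and the other 5 hearts lay between 25 and 79 reads. Myl7 (ENSRNOG00000014409, chromosome 14, 86143862 to 86147553) measured 18.6, 1.99 and 0.261 FPKM in the young hearts. It measured 0.158, 37.9 and 0.301 FPKM in the aged hearts. Aged animal 4 was 2.04 times young animal 3, the next highest, and the groups overlapped fully. Young animal 3 had 822 Myl7 reads where young animals 13 and 15 had 88 and 12.

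Sln (ENSRNOG00000009047, chromosome 8, 58431407 to 58435654) ranged from 0 to 125.9 FPKM. It measured 20.8, 0.313 and 0.301 FPKM in young animals 3, 13 and 15, from 133, 2 and 2 reads. It measured 0, 125.9 and 1.19 FPKM in aged animals 3, 4 and 7, from 0, 875 and 8 reads. Aged animal 4 was 6.05 times young animal 3, and the 0 reads in aged animal 3 allow up to 0.122 CPM by counting error alone. Mybphl (ENSRNOG00000037082, chromosome 2, 211159062 to 211173786) measured 0.225, 0.0204 and 0.197 FPKM in the young hearts and 0.0179, 3.25 and 0.0390 FPKM in the aged hearts. Its 173 reads in aged animal 4 were 14.5 times the next highest level, and no other heart had more than 11 reads. Young animal 3 thus shared high Sln and Myl7 with aged animal 4, while its Myl4 stood level with young animal 15.

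Promoters are shown for the 3 atrial muscle genes that were highest in aged animal 4 and are held in the reference table, with that of ventricular Myl3 for contrast. They come from RefSeq (GRCr8, a later build than that of the gene positions above), which gave a promoter for 7 of the 10 genes: Hey2, Irx4, Nr2f1, Mybphl, Myl3, Myl4 and Myl7. Each runs 5′ to 3′ on the gene's strand, from 250 bases before the start to 50 bases after it. The stretches are chr10:89975900-89976199 (plus strand) for Myl4, chr14:84996575-84996874 (minus strand) for Myl7, chr2:198693202-198693501 (plus strand) for Mybphl and chr8:119616844-119617143 (plus strand) for Myl3. Capitals mark matches, on either strand, to motifs of heart muscle or basal promoters.
Myl4: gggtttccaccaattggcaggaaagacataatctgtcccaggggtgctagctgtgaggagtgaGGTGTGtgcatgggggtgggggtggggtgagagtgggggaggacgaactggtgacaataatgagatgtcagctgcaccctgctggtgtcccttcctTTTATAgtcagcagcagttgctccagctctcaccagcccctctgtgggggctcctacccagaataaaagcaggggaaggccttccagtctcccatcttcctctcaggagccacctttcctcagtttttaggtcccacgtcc
Myl7: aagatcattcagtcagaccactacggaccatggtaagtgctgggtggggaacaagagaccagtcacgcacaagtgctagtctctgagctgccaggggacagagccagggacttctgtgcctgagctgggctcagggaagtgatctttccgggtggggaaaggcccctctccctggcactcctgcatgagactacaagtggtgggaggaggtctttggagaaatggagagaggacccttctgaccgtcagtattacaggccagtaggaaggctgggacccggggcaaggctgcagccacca
Mybphl: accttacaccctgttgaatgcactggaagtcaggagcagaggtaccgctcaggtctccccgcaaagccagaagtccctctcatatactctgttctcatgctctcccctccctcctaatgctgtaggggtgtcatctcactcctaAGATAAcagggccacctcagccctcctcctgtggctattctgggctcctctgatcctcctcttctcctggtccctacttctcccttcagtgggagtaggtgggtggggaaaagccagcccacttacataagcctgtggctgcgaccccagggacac
Myl3: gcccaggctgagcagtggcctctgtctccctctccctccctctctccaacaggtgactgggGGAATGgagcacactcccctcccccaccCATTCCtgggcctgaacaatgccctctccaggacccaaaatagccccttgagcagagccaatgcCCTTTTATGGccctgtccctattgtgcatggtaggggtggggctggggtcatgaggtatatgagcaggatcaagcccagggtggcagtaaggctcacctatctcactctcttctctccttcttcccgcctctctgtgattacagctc
The letters searched were TATAAA (an element of basal promoters), AGATAA (bound by GATA factors), CATTCC (bound by TEAD factors), AGGTCA (bound by nuclear receptors such as Nr2f2) and GGTGTG (bound by T-box factors), on both strands. The SRF CArG box and the MEF2 site were searched by name. The Myl4 stretch matched the first of these elements and the T-box element, which were found in 14.2% and 17.9% of the 33469 promoters in the table. The Mybphl stretch held a GATA match, as did 11.6% of all promoters. Myl3 held a CArG box, present in 1.64% of promoters, and 2 TEAD matches, present in 14.2%. Myl7 held none of them, and AGGTCA (16.2% of promoters) and MEF2 (3.29%) matched in 0 of the 7. The plain 6-letter matches have no overlap with each other in these stretches, and a match is a description of the letters only.

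The embryonic atrial factors did not follow the atrial muscle genes. Nr2f1 (ENSRNOG00000014795, chromosome 2, 5569935 to 5579894) stayed between 1.80 and 3.33 FPKM over the 6 hearts, and was highest in aged animal 7. By FPKM each aged heart was above all young hearts. Nr2f2 (ENSRNOG00000010308, chromosome 1, 131448447 to 131460473) measured 9.001, 6.63 and 17.3 FPKM in the young hearts. It measured 21.7, 18.5 and 18.5 FPKM in the aged hearts, above all young hearts, and was highest in aged animal 3, where Myl4, Myl7, Sln and Mybphl were lowest. The 7 measured markers of venous and lymphatic endothelium, which also makes Nr2f2, were read beside it. Their geometric mean was 11.5, 10.3 and 16.98 FPKM in the young hearts and 18.8, 22.6 and 16.4 FPKM in the aged hearts, with none at 0, and their part in the Nr2f2 levels was not tested.

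Within a heart, plain shares and ratios set atrial against ventricular light chains without regard to library scaling. The atrial pair took 0.391%, 0.0585% and 0.267% of light chain FPKM (Myl4, Myl7, Myl2 and Myl3 summed) in young animals 3, 13 and 15. It took 5.06%, 8.69% and 0.288% in aged animals 3, 4 and 7. Ventricular light chains therefore made up most of this FPKM in every heart, and aged animals 3 and 4 had the highest atrial shares. Counted as reads, the share was 11.9% in aged animal 4 (3081 of 25821 reads, 95% Wilson interval 11.5% to 12.3%). In aged animal 3 it was 5.44%, from only 33 of 607 reads (3.90% to 7.54%). These intervals cover counting error only.

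The paired ratios differed between light chains in young animal 3. Myl7 was 0.0341, 0.00336 and 0.00243 of Myl2 by FPKM in the young hearts, and 0.0689, 0.588 and 0.00309 of Myl2 in the aged hearts. On the log2 scale with 1 FPKM added to each gene, the mean was -6.29 ± 1.42 in young and -2.83 ± 2.98 in aged hearts (SD, n = 3 each, difference 3.45, two-sided exact permutation test, p = 0.2). Myl4 was 8.45e-04, 2.87e-04 and 0.0027 of Myl3 in the young hearts, and 0.0519, 0.0648 and 0.00287 of Myl3 in the aged hearts. Its log2 mean was -9.74 ± 1.42 in young and -5.18 ± 2.55 in aged hearts (difference 4.56, two-sided exact permutation test, p = 0.1), and the groups did not overlap. The smallest p this design allows is 0.1, so neither ratio could pass a threshold of 0.05. Without aged animal 3 the differences were 2.79 (two-sided exact permutation test, p = 0.4) and 3.72 (p = 0.2), and without aged animal 4 they were 2.41 (p = 0.4) and 3.94 (p = 0.2), each with 3 young and 2 aged hearts. Aged animal 7 gave ratios close to those of young animal 15 for both pairs. Adding 1 FPKM narrows a log2 ratio between low levels, so these log2 values depend on level. In aged animal 3, a plain Myl7 to Myl2 ratio of 0.0689 gave -1.51, beside -0.75 from 0.588 in aged animal 4. With 0.1 FPKM added instead, the group differences were 3.11 (two-sided exact permutation test, p = 0.2) and 4.61 (p = 0.1).

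**Figure D2:**
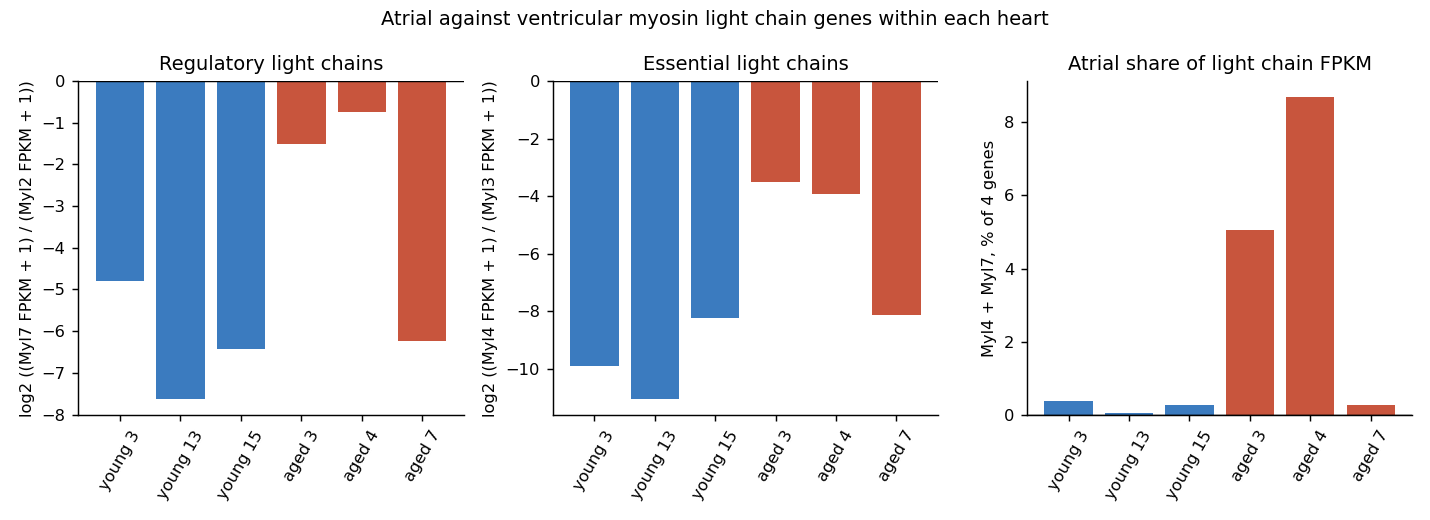
Bars in the left and middle panels give the log2 ratio of atrial to ventricular light chain FPKM (1 FPKM added to each) per heart, and those in the right panel the atrial share of light chain FPKM in percent (young blue, aged red). Aged animals 3 and 4 have the highest shares (5.06% and 8.69%), while aged animal 7 (0.288%) sits within the young hearts. Adding 1 FPKM narrows log2 ratios between low levels, as in aged animal 3.

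Sln and Pln, the atrial and ventricular regulators of the calcium pump, were compared in the same way. Sln was 1.26%, 0.0191% and 0.0772% of Pln by FPKM in the young hearts. It was 0%, 71.1% and 1.79% of Pln in the aged hearts. Aged animal 4 thus carried the 2 transcripts at similar levels per length, while Pln led by a wide margin elsewhere. Averaged over all 10 genes, the mean log2(FPKM + 1) of atrial genes minus that of ventricular genes was -4.54, -5.92 and -4.08 in the young hearts. It was -0.52, -0.42 and -3.59 in the aged hearts, so that the mean of the ventricular genes was higher in every heart. The atrial and ventricular means were 1.33 and 1.85 in aged animal 3, against 4.44 and 4.86 in aged animal 4. Adding 1 FPKM narrows a difference between low levels, so the values of these 2 hearts are not alike in kind. With Nr2f1 and Nr2f2 left out, the same difference was -4.42, -6.37 and -4.79 in the young hearts and -1.50, 0.25 and -4.33 in the aged hearts. The atrial muscle genes then led in aged animal 4 alone. The difference between the group means over all 10 genes, aged minus young, was 3.34, and it was 2.85 without aged animal 3 and 2.79 without aged animal 4.

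Set against the cardiomyocyte genes of the same heart, the ventricular light chains overlapped between the groups. Myl3 was 438.8%, 442.6% and 409.4% of the shared cardiomyocyte mean in the young hearts, and 463.1%, 405.8% and 764.6% in the aged hearts. Myl2 was 44.8%, 47.6% and 26.6% in the young hearts and 43.0%, 24.97% and 55.6% in the aged hearts. Aged animal 3, which had little muscle RNA, lay within the range of the young hearts for Myl2 and just above it for Myl3. Irx4 was 1.69%, 1.34% and 1.55% in the young hearts and 0.595%, 0.700% and 1.36% in the aged hearts, lowest in aged animals 3 and 4. Hey2 was 0.705%, 0.596% and 0.944% against 18.0%, 1.06% and 2.42%, and was above all young hearts in each aged heart. The 18.0% of aged animal 3 rests on 63 reads over a very low denominator. Myl4, Nr2f1 and Nr2f2 were also above all young hearts in each aged heart on this scale. Most genes rise with it: libraries scaled to these cardiomyocyte genes had 11387 of 13784 tested genes higher in aged hearts by the study's limits, given below.

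On the same scale, aged animal 4 was again highest for the 4 atrial muscle genes. Myl4 was 0.371%, 0.127% and 1.10% of the cardiomyocyte mean in the young hearts and 24.0%, 26.3% and 2.19% in the aged hearts. The 24.0% of aged animal 3 rests on 25 Myl4 reads over a very low denominator. Sln was 1.71%, 0.0251% and 0.0746% in the young hearts and 0%, 48.8% and 0.679% in the aged hearts. Myl7 was 1.53%, 0.160% and 0.0646% in the young hearts and 2.96%, 14.7% and 0.172% in the aged hearts. Mybphl reached 1.26% in aged animal 4 and was at or under 0.335% in the other 5 hearts.

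**Figure D3:**
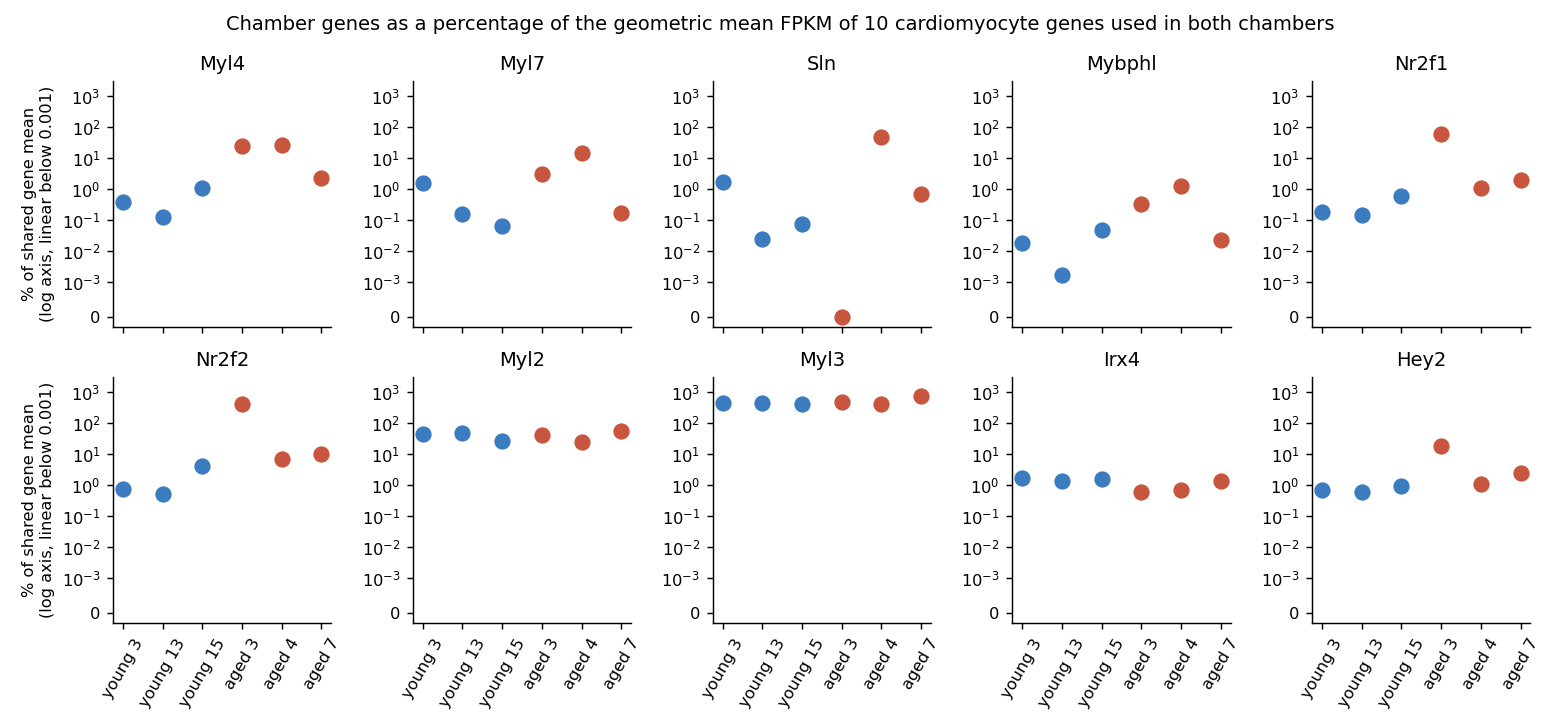
Level of each chamber gene as a percentage of the geometric mean FPKM of 10 shared cardiomyocyte genes in the same heart, on a logarithmic axis that is linear below 0.001, with 1 point per heart (young blue, aged red). Myl2 and Myl3 overlap between young and aged hearts, while Sln (48.8%) and Myl7 (14.7%) are highest in aged animal 4.

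Aged and young donor hearts were then compared by edgeR's quasi-likelihood test over the 13784 genes that passed a filter on low counts, 9 of the 10 chamber genes among them (all but Sln). A gene was counted when it passed the study's limits, which ask for an unadjusted p under 0.05 and a fold change outside 0.67 to 1.5. Irx4, Myl2 and Hey2 were lower in aged hearts by these limits, and 0 of the 5 tested atrial genes passed them. Over all tested genes, 19% passed these limits as lower, 13.2% as higher and 32.2% in either direction. No tested gene had an adjusted p under 0.05 (0% of genes, edgeR with Benjamini-Hochberg adjustment), against 4731 genes at an unadjusted p under 0.05. Without young animal 15, 6815 of 14109 tested genes did, and leaving out any other single heart gave 0. Among the 6815 were 4 of the 10 chamber genes tested there. They were Nr2f2 (adjusted p = 0.0173), Irx4 (0.0246), Hey2 (0.0270) and Myl2 (0.0448), all by edgeR. DESeq2 called 3592 and limma-voom 8417 of the 13784 tested genes at an adjusted p under 0.05.

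Among the ventricular genes, Irx4 changed by a log2 fold change of -3.91 (SE 1.26, edgeR, unadjusted p = 0.0194, adjusted p = 0.101). Myl2 changed by -3.50 (SE 1.36, edgeR, unadjusted p = 0.0397, adjusted p = 0.131) and Hey2 by -1.85 (SE 0.669, edgeR, unadjusted p = 0.0304, adjusted p = 0.117). Myl3 did not pass, at -2.92 (SE 1.37, edgeR, unadjusted p = 0.0734, adjusted p = 0.176). The median over the 4 was -3.21, beside -3.08 over the 10 shared cardiomyocyte genes and 0.016 over all tested genes. The folds kept their direction when any 1 heart was left out (Irx4 -4.50 to -3.32, Myl2 -4.19 to -2.92, Myl3 -3.48 to -2.34, Hey2 -2.36 to -1.43), but most calls did not hold throughout. Without aged animal 4 none of the 4 passed, at folds of -4.14 for Irx4 (SE 1.69, edgeR unadjusted p = 0.0568), -3.63 for Myl2, -3.16 for Myl3 and -1.88 for Hey2. Myl2 also failed without young animal 3 (-3.25), young animal 13 (-3.08) or aged animal 7 (-4.19), and Hey2 without young animal 3 (-1.57), young animal 13 (-1.68) or aged animal 3 (-1.43). Without aged animal 3, Myl3 passed (-2.34, edgeR unadjusted p = 0.0362). With DESeq2 all 4 had an adjusted p between 0.00605 (Irx4) and 0.0398 (Myl3), and with limma-voom between 0.00436 (Hey2) and 0.0169 (Myl3), all lower in aged hearts.

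Among the atrial genes, Mybphl had the largest fitted change, 2.51 (SE 1.82, edgeR, adjusted p = 0.339), followed by Myl4 at 2.40 (SE 1.42, edgeR, adjusted p = 0.254). Myl7 was at 0.33 (SE 2.13, edgeR, adjusted p = 0.920), Nr2f2 at 0.44 (SE 0.236, edgeR, adjusted p = 0.217) and Nr2f1 at 0.07 (SE 0.228, edgeR, adjusted p = 0.836). Without aged animal 4, Myl4 turned to -0.89, Mybphl to -2.71 and Myl7 to -5.52. Leaving out any other single heart did not turn Myl4 or Mybphl. Myl7 also turned without young animal 13 (-0.10) or young animal 15 (-0.22), and was at 2.96 without young animal 3. Without aged animal 3, Myl4 passed the limits (2.97, edgeR unadjusted p = 0.0430). Nr2f2 kept its direction when any 1 heart was left out (0.27 to 0.72). It passed the limits as higher without young animal 15 (0.72, edgeR unadjusted p = 0.0058), where 3802 of 14109 tested genes did. With limma-voom Nr2f2 also passed as higher (0.62, limma-voom adjusted p = 0.0145), alone among the tested atrial genes, where 3688 of 13784 tested genes did. With DESeq2 none of them passed, and DESeq2 gave no p for Myl4 and Mybphl. Sln, fitted only when no filter was applied, was at 2.07 (SE 2.29, edgeR, unadjusted p = 0.397). In scaled CPM, 4 of the 9 tested chamber genes did not overlap between groups, Nr2f2 higher and Myl2, Myl3 and Irx4 lower in aged hearts, where 41.6% of all tested genes did not overlap. Nr2f1, higher in all aged hearts by FPKM, overlapped in scaled CPM.

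When libraries were scaled to the shared cardiomyocyte genes, the ventricular direction was lost. The log2 fold change of Myl2 became 0.05, that of Myl3 0.34 and that of Hey2 3.24, while Irx4 stayed lower at -0.76 (edgeR, unadjusted p = 0.692). The genes past the limits were then Myl4, Mybphl, Nr2f1 and Nr2f2, all higher in aged hearts, as were 11387 of the 13784 tested genes. This scaling moved the median of all genes by 5.95 on the log2 scale, more than the changes of Myl4 (5.03) and Mybphl (4.62) and close to those of Nr2f1 (6.09) and Nr2f2 (6.26). Without aged animal 3 it moved that median by 2.06, and Myl4 (4.75), Mybphl (4.88), Sln (5.33), Myl7 (3.67) and Nr2f1 (2.28) were past the limits as higher. In that setting 4572 of 14033 tested genes were past them as higher.

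**Figure D4:**
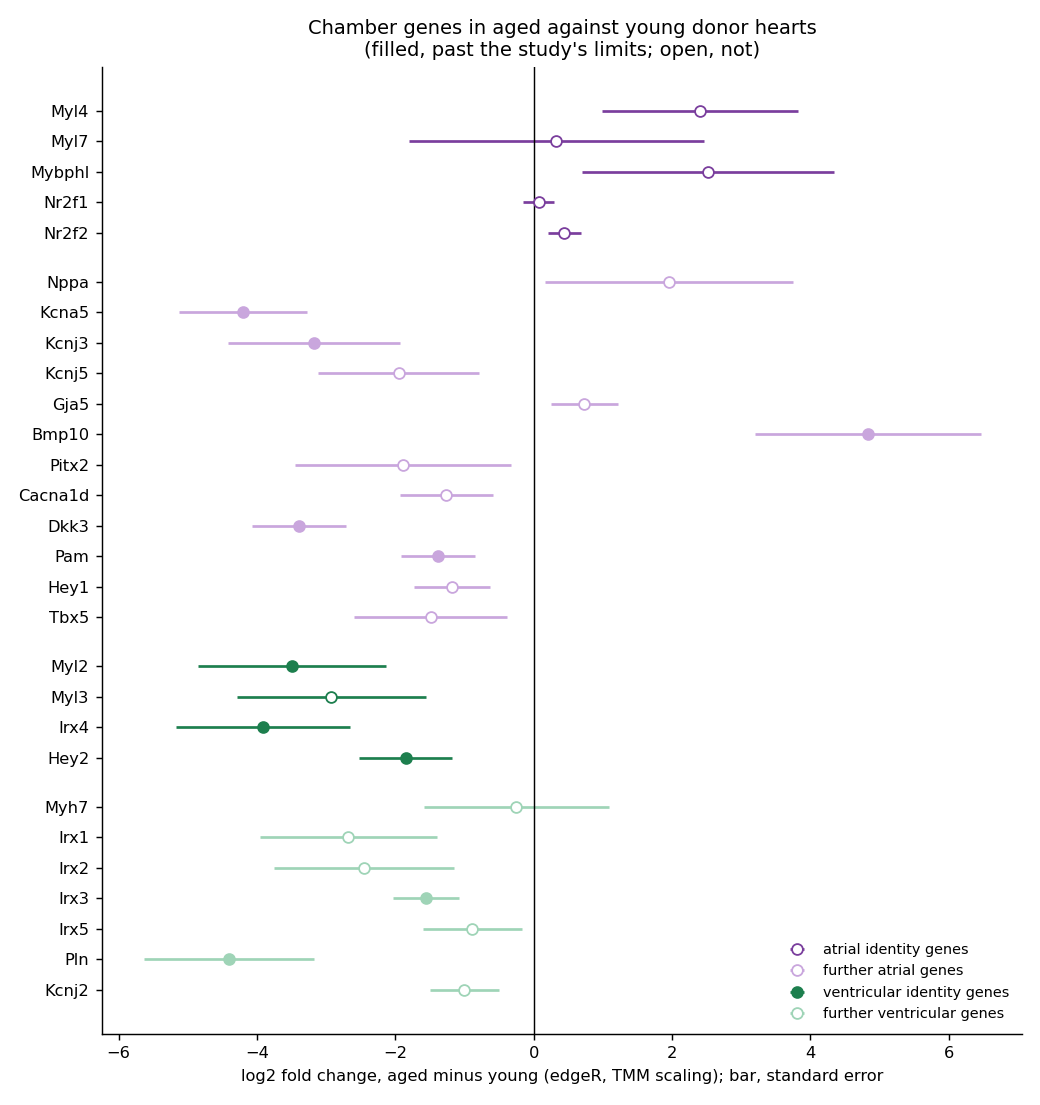
Log2 fold change (aged minus young) of the tested chamber genes and of the further atrial and ventricular genes, with standard errors from edgeR as bars, filled points for genes past the study's limits, open points for the rest and a vertical line at no change. Irx4 (-3.91), Myl2 (-3.50) and Hey2 (-1.85) lie on the lower side, and the errors of Myl7, Myl4 and Mybphl are wide.

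Other genes known as atrial or ventricular were read beside these. Of 12 further atrial genes, all tested, 1 was higher and 4 were lower in aged hearts by the study's limits, beside 13.2% higher and 19% lower over all tested genes, with a median log2 fold change of -1.44. The riser was Bmp10 (4.83), a growth factor made by atrial muscle, which measured 13.5 FPKM in aged animal 4 from 418 reads and was 18.3 times the next highest heart there. Kcna5 (-4.20), Kcnj3 (-3.18) and the secreted Dkk3 (-3.39) fell, the first 2 encoding potassium channels of atrial current, as did the peptide-processing enzyme Pam (-1.38). Kcna5 and Dkk3 passed whichever heart was left out. Bmp10 did not pass without aged animal 4 (1.96), young animal 3 (4.78) or young animal 13 (4.33). Kcnj3 did not pass without aged animal 4 (-3.33), aged animal 7 (-3.87), young animal 3 (-2.87) or young animal 13 (-2.87), and Pam passed only without young animal 15 (-1.60). Nppa, the atrial natriuretic peptide that stressed ventricles also make, measured 1742 FPKM in aged animal 4, or 3.63 times the next highest heart, and did not pass. Aged animal 4 was highest for 4 of the 6 atrial genes and for 3 of the 12 further ones, of which young animal 3 was highest for 5.

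Of 9 further ventricular genes, 7 were tested and 2 passed the limits, both lower: Pln (-4.41) and the transcription factor Irx3 (-1.55), beside 19% of all tested genes. The median over the 7 was -1.55. Pln passed whichever heart was left out, and Irx3 did not pass without aged animal 3 (-1.38), aged animal 4 (-1.53) or young animal 13 (-1.24). Hand1 and Kcnip2 did not pass the filter on low counts and measured 0 to 6 reads and 1 to 71 reads per heart. Aged animal 3 was lowest for 7 of the 9, for all 4 ventricular genes and for 4 of the 6 atrial genes. It was also lowest for 6 of the 12 further atrial genes. How often each heart was highest or lowest over all tested genes was not counted. The 7 further genes past the limits numbered 3 when young animal 13 was left out and 12 when young animal 15 was. Of all tested genes, 2495 of 14060 and 7214 of 14109 were past them in these settings.

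Markers of other cells and sites moved with several of these values. Of the conduction system genes, the pacemaker channel Hcn4 had 10940 reads in young animal 15 and between 7 and 622 in the other 5 hearts, so that the highest Hcn4 fell in a heart with low Myl7 and Sln. Of the epicardial genes, Upk3b had 40 reads in young animal 3 and 0 in the other 5 hearts, and Msln was also highest there (101 reads against 2 to 60), in the young heart with high Sln and Myl7. In aged animal 4, Upk3b had 0 reads and Msln 15, and the sum of the 7 epicardial markers was the lowest of the 6 hearts (7.34 FPKM, range 7.34 to 20.0). Most of that sum was Wt1 (4.76 FPKM) and Tbx18 (2.08 FPKM). The number of these markers at 0 reads was 2 there, as in young animals 13 and 15 and aged animal 3. Macrophage markers summed to 97.3, 86.5 and 1626 FPKM in the young hearts and 5836, 3106 and 3013 FPKM in the aged hearts, highest in aged animal 3, where the ventricular genes were lowest. Their part in the chamber gene levels was not tested.

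The remaining marker lists were counted by the same limits. All 6 tested neutrophil genes, 3 of 8 macrophage genes, 2 of 6 T cell genes and 2 of 7 venous and lymphatic genes were higher in aged hearts, where 13.2% of all genes were. Lower by these limits were 3 of 10 shared cardiomyocyte genes, 2 of 7 fibroblast, 2 of 7 smooth muscle, 1 of 4 epicardial, 1 of 4 conduction system, 1 of 6 endothelial, 1 of 6 skeletal muscle, 1 of 5 red blood cell and 1 of 7 venous and lymphatic genes, where 19% of all genes were. The single adipocyte gene tested was in neither group. Against the left ventricular label, Myl2 and Myl3 were present in every heart, though with 27 and 547 reads in aged animal 3. Irx4 was under the floor of 3 reads there (2 reads), and Hand1, a left ventricular factor of the embryo, had 0 reads in all 3 aged hearts and 2 to 6 in the young hearts.

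**Figure D5:**
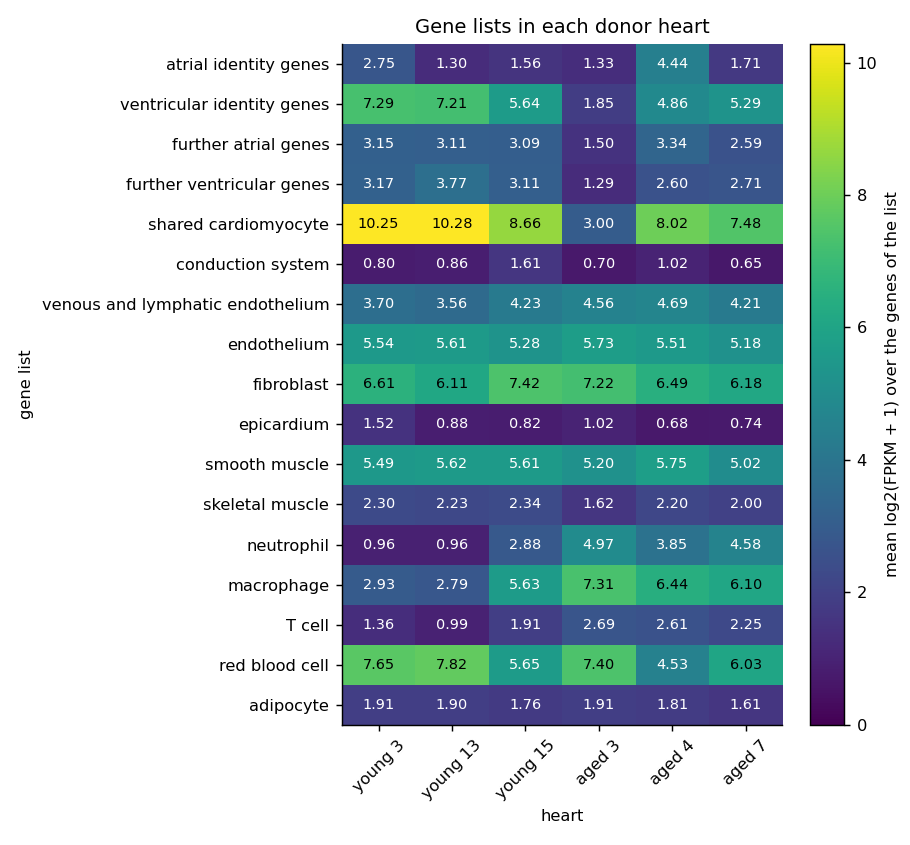
Mean log2(FPKM + 1) of each marker list in each heart, with the value printed in each cell and colours running from dark (low) to yellow (high). The ventricular and shared cardiomyocyte lists are lowest in aged animal 3, the atrial list is highest in aged animal 4 (4.44), and macrophage genes are high in young animal 15 and in all aged hearts.

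The genes whose level over the 6 hearts was most like Myl7 and Myl2 were found among 13783 tested genes, by Pearson's r of log2 CPM. With 6 points that share depth and scaling, r is given as a description. Closest to Myl7 were Syt8 (r = 0.991), Rtraf (0.982), Sh3d21 (0.976), Acot8 (0.976) and AABR07035832.1 (0.968). Of these, Rtraf ranged only from 6.44 to 6.66 log2 CPM over the hearts. Closest to Myl2 were Kcnj3 (r = 0.9998), Syde2 (0.9995), Pde4dip (0.9992), Lynx1 (0.9989) and Ptpn13 (0.9982). Kcnj3, on the list of further atrial genes, thus followed ventricular Myl2 over these hearts, from 4.80 log2 CPM in young animal 3 down to -2.72 in aged animal 3.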

How the data were processed

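Polyadenylated RNA of 6 grafts was sequenced. The submitters' processing notes name HISAT2 2.0.5, StringTie 1.3.3b, featureCounts 1.5.0-p3, DESeq2 1.16.1, GATK 3.7 and Rnor_6.0, with no role or order, and the use of strand in counting is not given in the sources used here. The authors deposited raw read counts per gene and FPKM per heart, the count divided by table gene length and library total (1 of 133500 values differed by over 0.1%). The table has 8 rows with no gene name. Replicate libraries differed beyond sampling noise (chi-square per degree of freedom 9.81 to 503.0).

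Counts were filtered with filterByExpr, scaled by TMM (factors 0.733 to 1.24) and fitted without covariates by edgeR 4.0.16 (glmQLFit, glmQLFTest; R 4.3.3), with Benjamini-Hochberg adjustment over 13784 genes. SE is the log2 fold change over the root of F. Ratios used FPKM plus 1 and a two-sided exact permutation test (scipy 1.17.1). Alternatives were DESeq2 1.42.0, limma-voom (limma 3.58.1), other scalings, filters and pseudocounts, and leaving out each heart. Scaling by cardiomyocyte genes without aged animal 3 was added after the data were seen. Scripts were tested on simulated data.

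The chamber genes, the 12 and 9 further genes and the marker lists were chosen with earlier results of these data known. Every chamber gene is named, further genes may be named if tested, Hand1 and Kcnip2 are named as untested, and likeness names the 5 highest r. Of the shared cardiomyocyte list, Ttn was not matched in the table.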

Additional observations from a re-analysis of the deposited data

How the results depend on the processing

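No paired analysis was possible because the labels link no young heart to an aged heart, and the shared animal number 3 was not taken as a pair. The 3 chamber genes past the study's limits became 5 with limma-voom, 5 (all higher) with cardiomyocyte scaling without aged animal 3, 0 at an adjusted p under 0.05 (edgeR), and 0 to 4 when 1 heart was left out. The 7 further genes became 15, 4, 0 and 3 to 12 under the same settings. Over all tested genes, 7503 of 13784 were past the limits with limma-voom. Leaving out 1 heart put from 2432 of 14024 (without young animal 3) to 7214 of 14109 (without young animal 15) past them. Cardiomyocyte scaling of all 6 hearts gave 4 chamber genes and 5 further genes, all higher in aged hearts, as were 11387 of 13784 tested genes. Without aged animal 3, this scaling put 4572 of 14033 tested genes past the limits as higher. Library totals shifted the median of all genes by 0.46. Directions reversed for Myl7 with limma-voom (-3.22) and without young animal 13 (-0.10), young animal 15 (-0.22) or aged animal 4 (-5.52). They reversed for Mybphl with limma-voom (-0.070) and without aged animal 4 (-2.71), and for Myl4 without aged animal 4 (-0.89). They reversed under cardiomyocyte scaling, with and without aged animal 3, for Myl2 (0.054 and 0.022), Myl3 (0.34 and 0.44) and Hey2 (3.24 and 1.22). Leaving out 1 heart at a time gave -0.89 to 2.97 for Myl4, -5.52 to 2.96 for Myl7 and -2.71 to 3.10 for Mybphl. The causes were not tested. Both light chain ratios, the atrial share and the atrial minus ventricular level kept their direction in every alternative run, the share falling from 4.44 to 2.44 percentage points without aged animal 4. Over all alternatives, 51 of 62 values answering a comparison stayed near the main value or, for the ratios, kept its direction. Counts of genes were judged here by size alone, whatever the genes or direction. Cardiomyocyte scaling of all 6 hearts is therefore among the 51, though its genes were others and all higher. Of the 125 single-gene values, 86 kept both their direction and their side of the limits. Low reads limit what can be ranked: outside aged animal 4, Mybphl had 1 to 11 reads and Myl4 25 to 79, and Sln (0 to 8) and Myl7 (8 to 88) were low in the hearts other than aged animal 4 and young animal 3.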
